A study of Mus musculus with 17 samples.

Results

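Early hepatocellular carcinoma (HCC) cells of the Mef2d KO genotype were set against normal liver cells of mice, gene by gene, in 6 of the 17 RNA-seq libraries of the study. The samples were chosen by their titles and genotype labels: 3 libraries of Mef2d KO early HCC cells and 3 libraries of normal liver cells. The KO cells came from DEN-induced mice (DEN is diethylnitrosamine, a liver carcinogen) and are labelled with the genotype KO. WT early HCC cells, also from DEN-induced mice and labelled WT, gave 3 further libraries, which served only to place KO cells nearer to or further from normal liver cells. The normal liver cells carry the genotype label Normal and no treatment in the labels, so KO genotype, tumour state and DEN cannot be told apart between KO cells and normal liver cells. The other 8 libraries, labelled KC1 and KC2, were not analysed here. The labels do not state strain, sex or age, the dose of DEN or the part of Mef2d that was altered. They also do not say whether replicates are separate animals or cultures, so the spread behind the p-values may be technical. In bulk RNA, fewer cells of a type and less RNA per cell cannot be told apart.

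MEF2D is one of the MEF2 transcription factors, which bind an AT-rich DNA element and are held in check by class IIa histone deacetylases (HDAC4, HDAC5, HDAC7 and HDAC9) that dock on them. HCC arises from the liver epithelium, and its hallmarks include loss of the hepatocyte programme set by HNF4A and the FOXA factors, and return of fetal genes such as Afp. The Hippo kinases limit liver size by restraining YAP and TAZ, coactivators of growth genes that act through TEAD factors.

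The tables hold expected counts, which are read counts divided among genes by estimation. Totals were 17370660 to 17683298 in KO libraries, 16604606 to 17615570 in WT libraries and 18467849 to 18637765 in normal liver libraries. Of 17140 genes listed in both tables, 12934 passed the filter on low counts and were tested. Levels are given as CPM, counts scaled to a common library size over the 9 libraries. They are single library values or the mean ± SD of 3 libraries, and 3 counts were worth 0.164 to 0.178 CPM. Differences are log2 differences of KO minus normal liver, ± SE. A gene was called changed at an adjusted p under 0.05 in edgeR's quasi-likelihood test. The SE was computed back from that test, as the absolute difference divided by the square root of its F value. For a gene at a few counts in a group, this SE is smaller than the counting error and is no measure of precision. Where a group held no count of a gene, the fold is a lower bound against a floor of 3 counts over the group. Both tables list only genes counted in at least 1 early HCC library, and 1665 of them had no count in normal liver cells. Genes transcribed in normal liver cells alone are not among those analysed here, so the number of genes lower in KO cells is a minimum.

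The protocol text names hepatocytes among the RNA sources, but the defining hepatocyte products were near 0 in the KO cells and low in the normal liver cells. Alb (serum albumin) had 0.288, 0 and 0 CPM in KO cells, against 2.65, 2.43 and 2.13 CPM in normal liver. Of 15 hepatocyte markers, 10 had a row and 6 passed the filter; the summed level of the list was 0.804 to 4.66 CPM in KO cells, 1.17 to 2.13 CPM in WT cells and 41.5 to 42.8 CPM in normal liver. Hepatocyte transcription factors were in part present in normal liver cells, where 5 of 10 listed averaged at least 1 CPM and 2 had no count. Of 7 tested, 2 rose and 5 fell. Genes that passed the filter only through the group where they were high had to differ, so these counts carry no test. Hnf4a had 0.518, 0.0574 and 0.396 CPM in KO cells, against 124, 115 and 119 CPM in normal liver (log2 difference -8.49 ± 0.14 SE, edgeR adjusted p = 9.83e-21). Keratins of simple and biliary epithelium, Krt8, Krt18, Krt7 and Krt19, were among the abundant transcripts of the normal liver cells, as described below. RNA of the proliferation gene Mki67 and of the fetal genes Hmga2 and Igf2bp1 was also present in them, with values given below. Falls and rises are thus relative to these cells and not to resting adult liver. Markers of endothelium were at or near 0 in every group, with list sums of 1.67 to 2.30 CPM in KO cells, 0.894 to 1.36 CPM in WT cells and 2.93 to 3.44 CPM in normal liver. The Kupffer cell and macrophage list summed to 19.8 to 21.01 CPM in KO cells, 10.8 to 12.6 CPM in WT cells and 3.70 to 4.96 CPM in normal liver, of which Cd68 made up the greater part in KO cells, and Ptprc (CD45, on all nucleated blood cells) averaged 0.0952 ± 0.0875 CPM in KO cells and 0.660 ± 0.147 CPM in normal liver. The samples are therefore called KO cells, WT cells and normal liver cells, after their labels, with no cell type added.

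**Figure D1:**
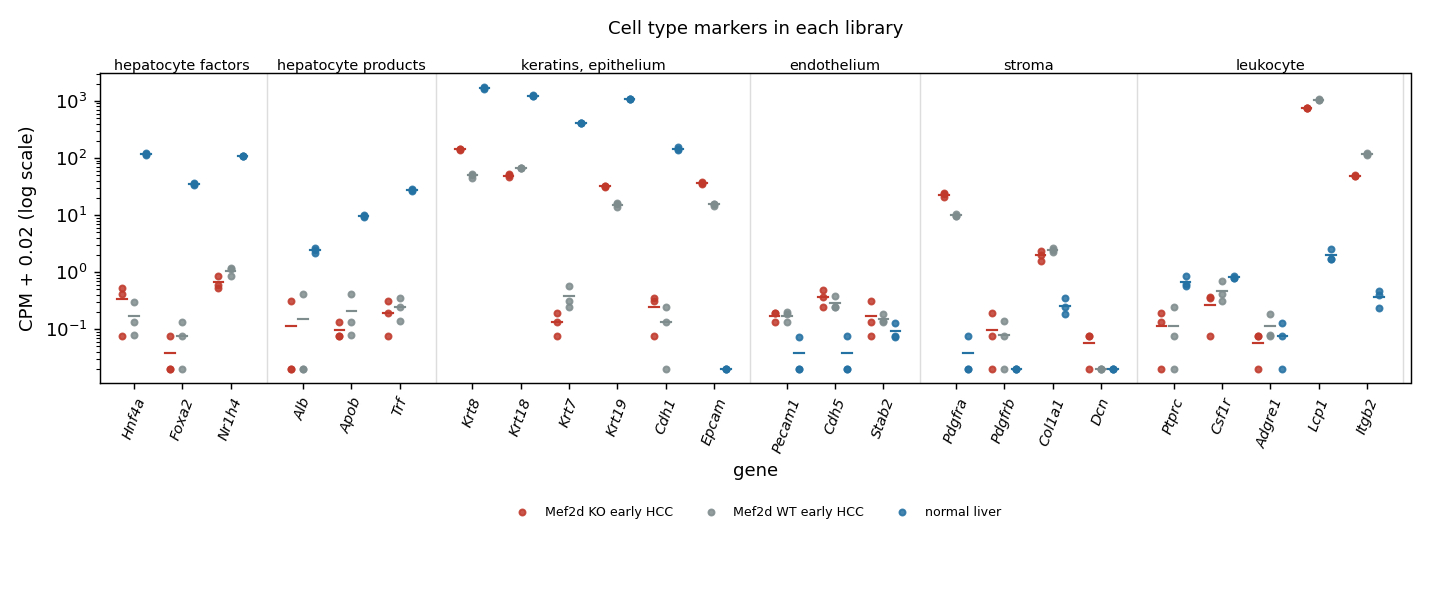
Level of marker genes in each library, as CPM + 0.02 on a log axis. Points are single libraries and short bars are means of 3 libraries for Mef2d KO early HCC cells, WT early HCC cells and normal liver cells. Hnf4a, Krt7 and Cdh1 are high only among the normal liver points shown, Epcam and Lcp1 among the early HCC points, and endothelial markers are near the floor in all 3 groups.

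Mef2d RNA was not absent from the KO cells. It had 69.03, 63.6 and 65.9 CPM in KO cells and 99.1, 97.4 and 104 CPM in WT cells, against 62.1, 51.8 and 57.1 CPM in normal liver. The KO libraries lay below all WT libraries and above all normal liver libraries. The excess of KO over normal liver was small (log2 difference 0.22 ± 0.056 SE, edgeR adjusted p = 0.00154), and KO cells were below WT cells by more (log2 difference -0.60 ± 0.053 SE, edgeR adjusted p = 1.37e-08). Mef2d lies at chr3:88141941-88172091 (GRCm38), and a count over the whole gene does not check a deletion whose position is not given. A worksheet title of the KO table carries the words sh vs ctrl, usual for a knockdown, and the letters AML, which the labels do not explain; the labels say KO. Mef2a, its close relative, averaged 89.5 ± 2.10 CPM in KO cells, 65.3 ± 7.56 CPM in WT cells, against 97.8 ± 6.96 CPM in normal liver and was not called against normal liver cells (log2 difference -0.13 ± 0.062 SE, edgeR adjusted p = 0.0619). It passed when a single library was left out: WT replicate 1 (edgeR adjusted p = 0.03), WT replicate 3 (0.0231) or normal liver replicate 1 (0.0249). Mef2b averaged 0.513 ± 0.465 CPM in KO cells and 0.659 ± 0.141 CPM in normal liver, and Mef2c did not pass the filter. Of the deacetylases, Hdac4 rose (log2 difference 0.96 ± 0.041 SE, edgeR adjusted p = 3.87e-14), with 127 ± 2.37 CPM in KO cells and 65.4 ± 2.69 CPM in normal liver. Hdac5 rose as well (log2 difference 0.66 ± 0.064 SE, edgeR adjusted p = 1.24e-08). Hdac7 fell (log2 difference -1.69 ± 0.043 SE, edgeR adjusted p = 1.08e-17), with 54.7, 54.3 and 52.96 CPM in KO cells and 103, 107 and 108 CPM in WT cells, against 180.2, 165 and 177 CPM in normal liver, so that KO cells lay further from normal liver than WT cells did. Hdac9 averaged 2.67 ± 0.410 CPM in KO cells and 2.88 ± 0.276 CPM in normal liver and was not called.

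Promoters of the family were searched for the MEF2 element, which is CTA and TAG around 4 bases that are A or T and reads alike on both strands. The windows ran from 250 bases before to 50 after the transcription start. Of 32851 mouse windows in the RefSeq GRCm38.p6 table, 183 held the element (0.557%). All 8 genes of the MEF2 and class IIa list matched, with 14 windows, and 2 windows held the element. They are shown because it stands next to the start of a MEF2 gene and of a MEF2 corepressor, in capitals. The match is a description of the sequence and not evidence of binding.
Mef2a promoter, chr7:67372809-67373108, minus strand: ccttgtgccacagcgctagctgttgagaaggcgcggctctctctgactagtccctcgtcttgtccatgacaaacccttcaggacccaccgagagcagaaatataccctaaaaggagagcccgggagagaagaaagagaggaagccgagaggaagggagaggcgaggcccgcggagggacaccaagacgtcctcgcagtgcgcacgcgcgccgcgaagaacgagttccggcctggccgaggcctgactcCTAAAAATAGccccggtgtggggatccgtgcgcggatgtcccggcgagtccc
Hdac5 promoter, chr11:102230123-102230422, minus strand: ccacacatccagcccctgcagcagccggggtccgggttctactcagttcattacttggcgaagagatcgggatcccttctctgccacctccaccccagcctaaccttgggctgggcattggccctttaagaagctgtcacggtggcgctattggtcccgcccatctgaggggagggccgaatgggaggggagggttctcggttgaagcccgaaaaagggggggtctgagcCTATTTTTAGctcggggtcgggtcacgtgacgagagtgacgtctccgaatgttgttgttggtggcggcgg
In the Mef2a window the element begins 2 bases before the start, and in the Hdac5 window it begins 20 bases before. Of these genes, Hdac5 rose by a log2 difference of 0.66 ± 0.064 and Mef2a was not called. The Mef2d window did not hold the element.

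KO cells and normal liver cells differed across most of the transcriptome. Of 12934 genes tested, 11194 were called (86.5%): 5745 higher in KO cells (44.4%) and 5449 lower (42.1%). At least 2-fold, 2623 genes were higher (20.3%) and 2606 lower (20.1%), and at least 8-fold, 1108 were higher and 928 lower. The median absolute log2 difference was 0.777 between KO and normal liver cells, 0.799 between WT and normal liver cells, and 0.292 between KO and WT cells. The comparisons of KO and of WT with normal liver share the normal liver libraries. With 86.5% of genes called, a count of called members says little about a gene list, so each pathway list described below is given with its median, to be read beside the median of all genes, 0.035, and with the background shares of 44.4% higher and 42.1% lower. The gene lists were chosen for liver, tumour and signalling biology. In each list, members that passed the filter only through the group where they were high had to differ, which moves counts and medians alike. Where a KO median described below lies beyond 1 in either direction, the WT median against normal liver had the same sign. WT medians were -2.47 for epithelial junctions, -2.005 for matrix, -1.34 for TGF-beta and -1.195 for p53. They were -0.71 for integrins, -0.72 for complement, 2.41 for HOX and 1.57 for MHC class I. These directions were thus shared by both early HCC genotypes.

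**Figure D2:**
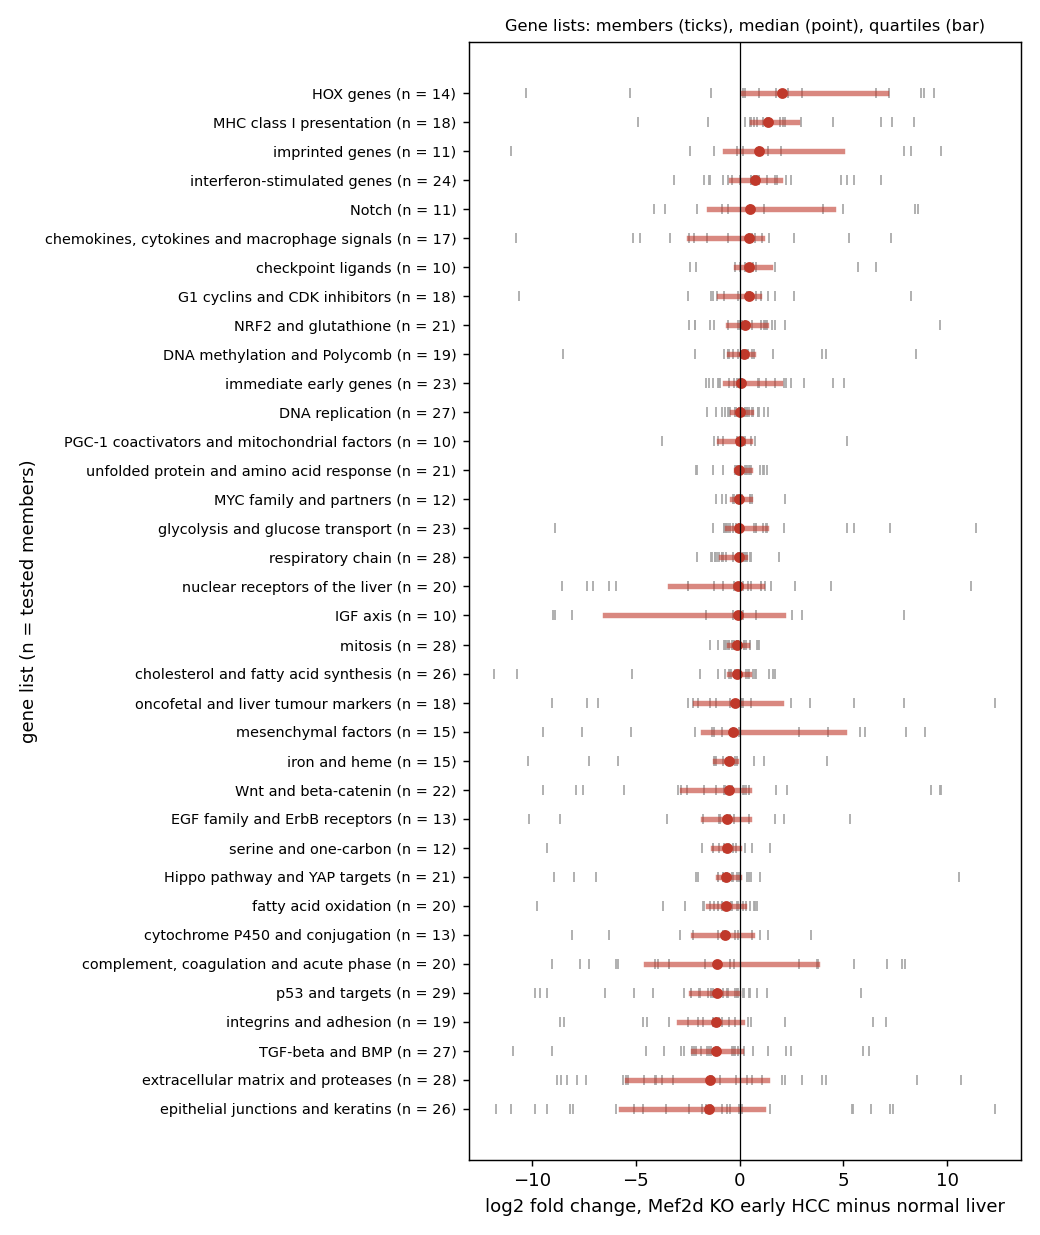
Log2 differences of KO early HCC minus normal liver for the members of the pathway lists with at least 8 tested members. Grey ticks are genes, points are list medians and bars run between the quartiles; the epithelial junction, matrix, TGF-beta, integrin, p53 and complement lists have medians below -1, and the HOX and MHC class I lists have medians above 1. For genes of 3 or fewer counts in a group the plotted value is the fitted one.

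Liver identity factors were mostly near 0 in KO cells and in WT cells alike. The factor list summed to 4.25 to 6.45 CPM in KO cells, 5.42 to 6.11 CPM in WT cells and 282 to 293 CPM in normal liver. Its median difference from normal liver was -7.37 for KO cells and -6.69 for WT cells. Foxa2, which opens chromatin at liver genes, had 0, 0.0574 and 0 CPM in KO cells, against 36.6, 34.7 and 33.7 CPM in normal liver and was 1830-fold lower by the ratio of counts, with a 95% exact interval of 329 to 72500. Nr1h4, the bile acid receptor FXR, had 0.576, 0.517 and 0.850 CPM in KO cells, against 106, 109 and 110.3 CPM in normal liver (log2 difference -7.37 ± 0.094 SE, edgeR adjusted p = 3.97e-22). No KO library came near the normal liver range for these factors. Foxa3, low in both groups, fell as well, with 0.515 ± 0.0606 CPM in KO cells and 2.12 ± 0.563 CPM in normal liver. Cebpa, which drives hepatocyte differentiation, went the other way (log2 difference 1.94 ± 0.29 SE, edgeR adjusted p = 5.46e-06), with 2.62 ± 0.869 CPM in KO cells and 0.679 ± 0.225 CPM in normal liver, as did Onecut1, with 0.745 ± 0.212 CPM in KO cells and 0.312 ± 0.0643 CPM in normal liver (log2 difference 1.24 ± 0.46 SE, edgeR adjusted p = 0.0179). The Onecut1 call was lost without KO replicate 1 (edgeR adjusted p = 0.09), normal liver replicate 1 (0.0511) or normal liver replicate 3 (0.0537).

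Among the nuclear receptors of the liver, 20 members were tested, 10 rose and 9 fell, with a median of -0.063, and the members split widely. Rxra, the shared partner of many lipid-sensing receptors, fell (log2 difference -5.95 ± 0.12 SE, edgeR adjusted p = 3.77e-19), with 0.591 ± 0.0631 CPM in KO cells and 36.9 ± 0.886 CPM in normal liver. Nr1h3 (LXR alpha, the sterol sensor) fell too (log2 difference -7.07 ± 0.22 SE, edgeR adjusted p = 2.63e-16). Ppara, which drives fatty acid burning, averaged 0.0192 ± 0.0332 CPM in KO cells and 9.97 ± 0.505 CPM in normal liver and was 523-fold lower by the ratio of counts, with a 95% exact interval of 93.4 to 20700. The receptors that rose included Nr2f1, an orphan receptor of the COUP-TF kind, with 15.8, 14.98 and 16.9 CPM in KO cells, against 0 CPM in all 3 libraries in normal liver, which makes it at least 289-fold higher. Vdr, the vitamin D receptor, rose (log2 difference 4.42 ± 0.098 SE, edgeR adjusted p = 1.53e-18) to 28 ± 0.589 CPM in KO cells, 91.2 ± 1.68 CPM in WT cells, against 1.30 ± 0.199 CPM in normal liver, so KO cells lay between WT and normal liver cells. Rxrb and Ppard rose by log2 differences of 1.02 ± 0.045 and 1.21 ± 0.063.

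Fetal and tumour-associated genes did not move as a block. For the oncofetal list, 18 members were tested, 8 rose and 9 fell, with a median of -0.20. Afp (alpha-fetoprotein, secreted by fetal liver and by many HCCs) had 49.97, 49.7 and 51.3 CPM in KO cells, against 1.10, 1.05 and 1.15 CPM in normal liver (log2 difference 5.51 ± 0.10 SE, edgeR adjusted p = 9.42e-20). Spp1 (osteopontin) had 1685, 1719.5 and 1748 CPM in KO cells, against 163, 167 and 162 CPM in normal liver (log2 difference 3.39 ± 0.036 SE, edgeR adjusted p = 3.68e-23). Epcam, an adhesion molecule of liver progenitors and carcinomas, had 37.3, 36.9 and 34.9 CPM in KO cells and 15.9, 14.6 and 15.5 CPM in WT cells, against 0 CPM in all 3 libraries in normal liver, and KO cells were at least 661-fold higher. Igf2, the fetal growth factor, averaged 10.5 ± 0.644 CPM in KO cells, 40.8 ± 0.776 CPM in WT cells, against 0.0368 ± 0.0638 CPM in normal liver and was 287-fold higher by the ratio of counts, with a 95% exact interval of 79 to 2370. In the opposite direction, the fetal RNA-binding protein gene Igf2bp1 fell (log2 difference -7.33 ± 0.11 SE, edgeR adjusted p = 3.59e-21), with 0.553 ± 0.230 CPM in KO cells and 89.98 ± 0.708 CPM in normal liver, and Lin28b averaged 0.0569 ± 0.0566 CPM in KO cells and 7.14 ± 0.862 CPM in normal liver. Hmga2, a chromatin factor of embryonic growth, had 199.7, 197 and 205 CPM in KO cells, against 790.1, 817 and 782 CPM in normal liver (log2 difference -1.99 ± 0.039 SE, edgeR adjusted p = 2.33e-19). Peg3, an imprinted growth regulator, averaged 0.210 ± 0.272 CPM in KO cells and 442 ± 6.13 CPM in normal liver (log2 difference -10.99 ± 0.12 SE, edgeR adjusted p = 5.43e-23).

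The HOX genes, which pattern the body axis and are silent in many adult epithelia, had the highest median among the pathway lists with at least 8 tested members, 2.05. Of 39 listed genes, 25 had a row, and of the 14 that passed the filter 9 rose and 3 fell. Hoxb9 had 21.99, 19.4 and 20.1 CPM in KO cells, against 0.0552, 0.0551 and 0 CPM in normal liver and was 559-fold higher by the ratio of counts, with a 95% exact interval of 154 to 4620. Hoxd8 averaged 11 ± 0.144 CPM in KO cells and 0.0184 ± 0.0319 CPM in normal liver and was 600-fold higher by the ratio of counts, with a 95% exact interval of 107 to 23800. Hoxb13 went the other way, with 0 CPM in all 3 libraries in KO cells, against 10.2, 7.88 and 8.41 CPM in normal liver, and was at least 154-fold lower. Hoxc6 averaged 0.248 ± 0.0345 CPM in KO cells and 10.04 ± 0.174 CPM in normal liver (log2 difference -5.30 ± 0.25 SE, edgeR adjusted p = 1.95e-13). A gene that passed the filter only through the group where it was high had to differ, so these counts describe the genes and carry no test.

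Epithelial structure separated the groups strongly. In the list of epithelial junctions and keratins, 26 members were tested, 8 rose and 17 fell, with a median of -1.49, and 14 of the falls were at least 2-fold. Cdh1 (E-cadherin, which joins epithelial cells) had 0.288, 0.0574 and 0.340 CPM in KO cells, against 146, 139 and 153 CPM in normal liver (log2 difference -9.27 ± 0.14 SE, edgeR adjusted p = 3.27e-21). Krt7, a keratin of bile ducts, had 0.0576, 0.172 and 0.113 CPM in KO cells and 0.296, 0.223 and 0.560 CPM in WT cells, against 417, 404 and 409 CPM in normal liver (log2 difference -11.72 ± 0.10 SE, edgeR adjusted p = 2.90e-24). Krt19 had 30.9, 32.7 and 32.7 CPM in KO cells and 13.6, 16.4 and 15.6 CPM in WT cells, against 1090.4, 1065 and 1094 CPM in normal liver (log2 difference -5.08 ± 0.045 SE, edgeR adjusted p = 4.02e-24). Krt8 and Krt18, the paired keratins of hepatocytes, fell by log2 differences of -3.55 ± 0.044 and -4.64 ± 0.039, yet Krt8 remained at 143 ± 2.64 CPM in KO cells, 49.7 ± 4.21 CPM in WT cells, against 1683 ± 55.6 CPM in normal liver. The desmosomal cadherin Dsg2 averaged 0.0573 ± 0.0576 CPM in KO cells and 134 ± 0.635 CPM in normal liver and was 2350-fold lower by the ratio of counts, with a 95% exact interval of 803 to 11400. Cldn2, a channel-forming claudin, fell (log2 difference -9.84 ± 0.092 SE, edgeR adjusted p = 6.47e-24), with 0.266 ± 0.142 CPM in KO cells and 252 ± 2.13 CPM in normal liver. The desmosome plaque genes changed far less: Dsp fell by a log2 difference of -0.84 ± 0.036 and Jup by -0.59 ± 0.061. Pkp2 was not called, at 20.6 ± 0.814 CPM in KO cells and 21.1 ± 1.23 CPM in normal liver. The members that rose were Epcam, Krt23, Tjp3, Ocln, Cldn4, Grhl2, Elf3 and F11r. Grhl2, a transcription factor of epithelial cells, had 14.1, 16.5 and 17.7 CPM in KO cells, against 0.221, 0.496 and 0.382 CPM in normal liver (log2 difference 5.43 ± 0.18 SE, edgeR adjusted p = 6.70e-16). Sox9, a factor of bile duct and progenitor cells, had 0.115, 0.115 and 0.0566 CPM in KO cells, against 55.2, 53.3 and 52.03 CPM in normal liver (log2 difference -9.03 ± 0.15). Bile duct markers as a list were split. Of 8 listed, 7 were tested, 3 rose (Spp1, Epcam and Cldn4) and 4 fell, against 44.4% higher and 42.1% lower over all tested genes. List sums were 1756 to 1818 CPM in KO cells, 1326 to 1425 CPM in WT cells and 1729 to 1770.5 CPM in normal liver. Most of the sum in KO cells was Spp1.

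Mesenchymal genes were split between the groups. In that list, 15 members were tested, 6 rose and 8 fell, with a median of -0.32. The neural cadherin gene Cdh2 had 0.288, 0.746 and 0.453 CPM in KO cells, against 350.4, 355 and 362 CPM in normal liver (log2 difference -9.47 ± 0.093 SE, edgeR adjusted p = 1.31e-23), and Cdh11 was not called, at 87.4 ± 2.09 CPM in KO cells and 87.6 ± 2.37 CPM in normal liver. The repressors of E-cadherin were split. Snai1 averaged 16.3 ± 1.26 CPM in KO cells and 0.239 ± 0.116 CPM in normal liver (log2 difference 6.06 ± 0.19), Zeb2 averaged 48.2 ± 2.08 CPM in KO cells and 0.0916 ± 0.0315 CPM in normal liver (log2 difference 8.93 ± 0.15) and Twist1 averaged 16.4 ± 0.367 CPM in KO cells and 0.0552 ± 0.0552 CPM in normal liver and was 298-fold higher by the ratio of counts, with a 95% exact interval of 101 to 1450. Snai2, in contrast, averaged 0.287 ± 0.116 CPM in KO cells and 55.9 ± 2.31 CPM in normal liver (log2 difference -7.58 ± 0.13 SE, edgeR adjusted p = 4.76e-20), and Zeb1 fell by a log2 difference of -1.24 ± 0.055. Vim, the intermediate filament of mesenchymal cells, fell, with 791 ± 7.88 CPM in KO cells and 1439 ± 24.4 CPM in normal liver (log2 difference -0.86 ± 0.031 SE, edgeR adjusted p = 2.09e-15). Fn1 (fibronectin) had 2503, 2433 and 2541 CPM in KO cells and 1055, 1095 and 1148 CPM in WT cells, against 346, 337 and 340.4 CPM in normal liver (log2 difference 2.87 ± 0.035 SE, edgeR adjusted p = 2.35e-22), with KO cells further from normal liver than WT cells. Pdgfra, a receptor of fibroblasts and stellate cells, averaged 22.7 ± 1.95 CPM in KO cells, 9.85 ± 0.468 CPM in WT cells, against 0.0184 ± 0.0319 CPM in normal liver and was 1240-fold higher by the ratio of counts, with a 95% exact interval of 222 to 49100. Of the 12 stellate cell and fibroblast markers, 3 were tested and all of these rose, against 44.4% of all tested genes. None of the listed markers averaged 1 CPM in normal liver. The tested ones thus passed the filter through the early HCC groups and had to rise, so their count carries no test. List sums were 28.02 to 33.4 CPM in KO cells, 20.7 to 25.3 CPM in WT cells and 0.819 to 1.10 CPM in normal liver. Most of the sum in KO cells was Pdgfra. The muscle filament gene Des averaged 6.06 ± 0.542 CPM in KO cells and 0.495 ± 0.111 CPM in normal liver, and the collagen gene Col1a1 averaged 1.96 ± 0.389 CPM in KO cells and 0.238 ± 0.0849 CPM in normal liver. Col1a2, Col3a1, Dcn, Pdgfrb and Acta2 did not pass the filter.

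The extracellular matrix and its receptors fell more often than they rose. For matrix genes and proteases, 28 members were tested, 10 rose and 18 fell, with a median of -1.41. The chains of basement membrane collagen fell together: Col4a1 had 1.90, 1.32 and 1.19 CPM in KO cells, against 344, 335 and 336 CPM in normal liver (log2 difference -7.84 ± 0.072), Col4a2 averaged 0.573 ± 0.202 CPM in KO cells and 258 ± 3.38 CPM in normal liver (log2 difference -8.80 ± 0.094) and Col18a1 averaged 15.1 ± 0.540 CPM in KO cells and 672 ± 24.4 CPM in normal liver (log2 difference -5.47 ± 0.057). Nid1, the linker of laminin and collagen IV, ran opposite to them, with 248, 244 and 253 CPM in KO cells, against 0.110, 0.110 and 0.218 CPM in normal liver (log2 difference 10.66 ± 0.093 SE, edgeR adjusted p = 3.53e-24). Laminin chains were divided: Lamb1 rose (log2 difference 3.97 ± 0.051) and Lamb3 fell (log2 difference -5.38 ± 0.056). Among proteases, Mmp14, which sits in the membrane and activates others, averaged 0.325 ± 0.0899 CPM in KO cells and 127 ± 1.32 CPM in normal liver (log2 difference -8.58 ± 0.10 SE, edgeR adjusted p = 1.29e-22). Mmp9, a gelatinase, averaged 23.5 ± 1.12 CPM in KO cells, 79.2 ± 3.86 CPM in WT cells, against 0.0552 ± 0.0552 CPM in normal liver and was 427-fold higher by the ratio of counts, with a 95% exact interval of 146 to 2070. For integrins and adhesion molecules, 19 members were tested, 5 rose and 14 fell, with a median of -1.13. Itgb6, the activator of latent TGF-beta on epithelia, averaged 0.115 ± 0.100 CPM in KO cells and 48.96 ± 1.33 CPM in normal liver (log2 difference -8.66 ± 0.17 SE, edgeR adjusted p = 2.49e-19). Itgav and Itga2 fell by log2 differences of -3.38 ± 0.053 and -4.46 ± 0.046. The leukocyte integrin chains Itgb7 and Itgb2 rose, with 456 ± 14.3 CPM in KO cells and 5.24 ± 0.733 CPM in normal liver for Itgb7 (log2 difference 6.44 ± 0.066) and 48.1 ± 1.23 CPM in KO cells, 117 ± 3.96 CPM in WT cells, against 0.349 ± 0.116 CPM in normal liver for Itgb2 (log2 difference 7.08 ± 0.12). Lcp1, a leukocyte actin bundler that carcinomas also express, had 751, 738 and 752 CPM in KO cells, against 2.54, 1.71 and 1.69 CPM in normal liver (log2 difference 8.55 ± 0.066 SE, edgeR adjusted p = 1.35e-24). Of 10 pan-leukocyte markers, 6 were tested, 4 rose and none fell, against 44.4% higher and 42.1% lower over all tested genes. Markers that passed the filter only through the early HCC groups had to rise, so this count carries no test. List sums were 792 to 808 CPM in KO cells, 1156 to 1199 CPM in WT cells and 6.50 to 7.62 CPM in normal liver. Most of the sum in KO and WT cells was Lcp1. Besides Lcp1 and Itgb2, Coro1a and Rac2 rose, at 2.44 ± 0.289 CPM in KO cells and 0.384 ± 0.272 CPM in normal liver for Coro1a and 2.40 ± 0.675 CPM in KO cells and 1.23 ± 0.0772 CPM in normal liver for Rac2. Vav1 and Laptm5 were not called, Ptprc, Itgal, Spn and Ikzf1 did not pass the filter, and the part of other cells in these values was not tested.

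Several targets of YAP were far lower in KO cells than in normal liver cells, while most of the Hippo list differed less. In that list, 21 members were tested, 5 rose and 15 fell, with a median of -0.63, and the median absolute difference was 0.78, against 0.777 over all genes. Ccn2 (CTGF, a secreted matrix protein) had 1.09, 0.804 and 1.30 CPM in KO cells and 0.947, 0.670 and 1.12 CPM in WT cells, against 543, 514 and 508 CPM in normal liver (log2 difference -8.92 ± 0.079 SE, edgeR adjusted p = 3.80e-24). Ankrd1, a nuclear cofactor, had 4.09, 4.02 and 3.91 CPM in KO cells and 2.96, 2.68 and 2.63 CPM in WT cells, against 485, 495 and 484 CPM in normal liver (log2 difference -6.93 ± 0.052 SE, edgeR adjusted p = 1.19e-24). Cavin2, a coat protein of caveolae, averaged 0.381 ± 0.0877 CPM in KO cells and 97.8 ± 4.01 CPM in normal liver (log2 difference -7.98 ± 0.11 SE, edgeR adjusted p = 1.93e-21). Axl, a receptor tyrosine kinase, had 160.1, 164 and 165 CPM in KO cells and 291, 294 and 287 CPM in WT cells, against 689.8, 685 and 697 CPM in normal liver (log2 difference -2.08 ± 0.031 SE, edgeR adjusted p = 4.33e-21). Ccn1 and Amotl2 fell by log2 differences of -2.02 ± 0.075 and -0.78 ± 0.035, and Birc3, an inhibitor of apoptosis, rose by 0.34 ± 0.076. For Ccn2, Ankrd1, Cavin2 and Axl, every KO library lay below every normal liver library. Of the coactivators, Yap1 averaged 136 ± 3.95 CPM in KO cells and 150.1 ± 2.67 CPM in normal liver (log2 difference -0.14 ± 0.036 SE, edgeR adjusted p = 0.00127), and Wwtr1 (TAZ) fell by a log2 difference of -0.63 ± 0.046. Of the kinases that restrain them, Lats1, Lats2 and Stk3 fell by log2 differences of -0.34 ± 0.043, -0.61 ± 0.050 and -1.05 ± 0.065, and Stk4 rose by 0.57 ± 0.039. Tead1 fell (log2 difference -0.78 ± 0.034 SE, edgeR adjusted p = 4.61e-14), Tead4 was not called, and Tead2 had 39.1, 37.7 and 39.5 CPM in KO cells, against 0, 0 and 0.0546 CPM in normal liver, 2120-fold higher by the ratio of counts, with a 95% exact interval of 379 to 83600.

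The promoters of the list were searched for the TEAD element GGAATG on both strands in the same windows. Of 21 genes on the list, 17 matched the RefSeq GRCm38.p6 table, with 22 windows, and 12 windows of 10 genes held the element. It is a short element, found in 4817 of 32851 mouse windows (14.7%). Windows of 3 genes are shown with the elements in capitals. Ankrd1 has a pair of elements before its start. Axl has 1 element on the strand shown, and Amotl2 has 1 on the opposite strand, which reads CATTCC here.
Ankrd1 promoter, chr19:36119795-36120094, minus strand: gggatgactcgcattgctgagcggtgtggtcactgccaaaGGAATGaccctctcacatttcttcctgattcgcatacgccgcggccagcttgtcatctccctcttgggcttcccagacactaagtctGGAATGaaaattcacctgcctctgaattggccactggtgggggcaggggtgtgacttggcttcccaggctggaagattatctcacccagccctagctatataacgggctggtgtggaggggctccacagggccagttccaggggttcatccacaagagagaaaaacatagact
Axl promoter, chr7:25788684-25788983, minus strand: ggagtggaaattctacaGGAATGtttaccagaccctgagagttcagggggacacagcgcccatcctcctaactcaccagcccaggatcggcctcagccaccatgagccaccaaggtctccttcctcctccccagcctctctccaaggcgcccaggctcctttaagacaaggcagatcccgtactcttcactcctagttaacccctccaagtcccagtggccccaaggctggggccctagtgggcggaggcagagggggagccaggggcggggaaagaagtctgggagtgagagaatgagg
Amotl2 promoter, chr9:102717554-102717853, plus strand: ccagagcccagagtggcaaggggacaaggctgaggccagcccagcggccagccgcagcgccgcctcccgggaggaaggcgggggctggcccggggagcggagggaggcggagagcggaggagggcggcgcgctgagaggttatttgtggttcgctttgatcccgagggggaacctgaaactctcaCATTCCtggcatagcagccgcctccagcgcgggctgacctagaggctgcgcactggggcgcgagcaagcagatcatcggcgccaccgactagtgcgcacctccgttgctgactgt
The Ankrd1 window belongs to the gene with 4.005 against 488 CPM in KO and normal liver cells, and the Amotl2 window to one with 119.5 against 206 CPM. Genes with an element in their window thus differed in size of change. Cavin2, among the largest falls of the list, had no element in its window, and Ccn2 had no matching window. Tead2, which rose, had no element either. No binding was measured.

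**Figure D3:**
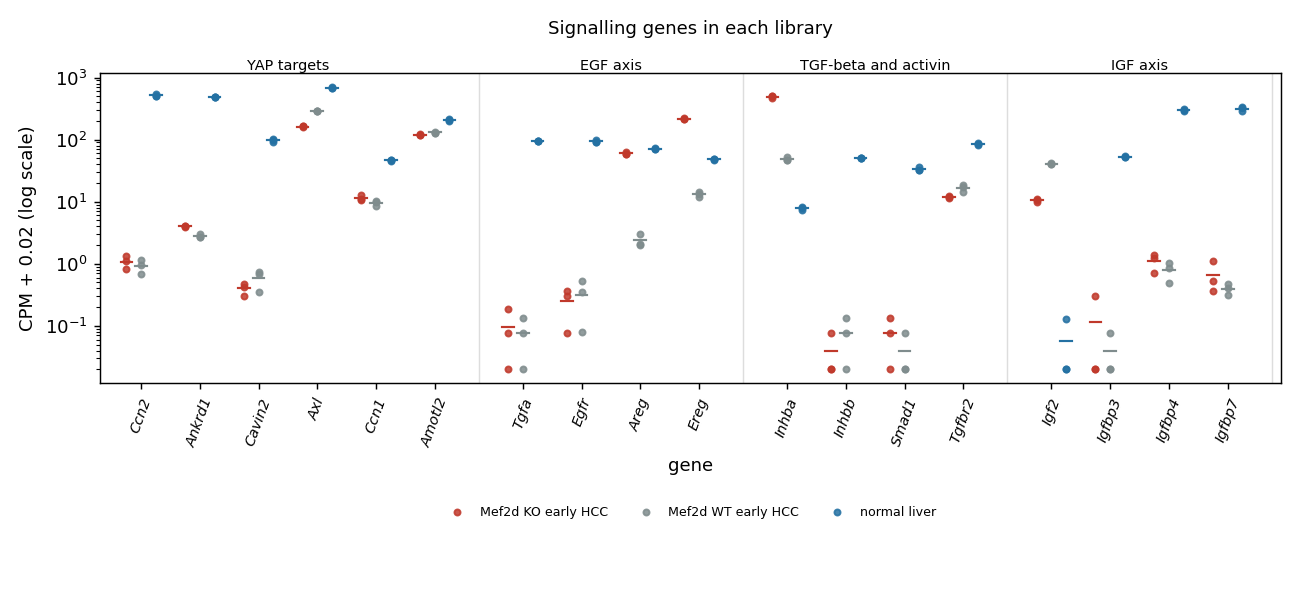
Level of signalling genes in each library, as CPM + 0.02 on a log axis. Points are single libraries and short bars are means of 3 libraries for Mef2d KO early HCC cells, WT early HCC cells and normal liver cells. Ccn2, Tgfa, Egfr, Inhbb and Igfbp7 are high among normal liver points and near the floor in early HCC cells, whereas Inhba is highest in KO cells.

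Ligands of the EGF receptor differed in direction. In the EGF list, 13 members were tested, 3 rose and 9 fell, with a median of -0.62. Tgfa, a ligand, had 0.0576, 0 and 0.170 CPM in KO cells, against 93.4, 95.2 and 96.6 CPM in normal liver (log2 difference -10.16 ± 0.15), and its receptor Egfr had 0.0576, 0.344 and 0.283 CPM in KO cells, against 92.9, 93.1 and 98.9 CPM in normal liver (log2 difference -8.65 ± 0.15). Ereg (epiregulin, a ligand of EGFR and ERBB4) had 221, 217 and 213 CPM in KO cells and 14.3, 13.3 and 12.04 CPM in WT cells, against 47.6, 49.3 and 48.4 CPM in normal liver (log2 difference 2.16 ± 0.041 SE, edgeR adjusted p = 1.41e-19). KO cells exceeded and WT cells fell short of every normal liver library for this gene. Areg (amphiregulin) had 63.7, 59.02 and 58.96 CPM in KO cells and 2.01, 3.02 and 2.07 CPM in WT cells, against 71.4, 70.3 and 73.9 CPM in normal liver (log2 difference -0.25 ± 0.050 SE, edgeR adjusted p = 1.58e-04), so KO cells reached near the normal liver level while WT cells did not. Btc fell by a log2 difference of -3.48 ± 0.14 and Nrg1 by -1.78 ± 0.051. Of the other receptors, Erbb2 and Erbb3 fell by -0.98 ± 0.062 and -0.62 ± 0.047. Errfi1, a feedback inhibitor of EGFR, rose (log2 difference 1.71 ± 0.038 SE, edgeR adjusted p = 1.48e-18).

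TGF-beta signalling genes fell more often than not: 27 members were tested, 7 rose and 19 fell, with a median of -1.15. Among ligands, Inhba (the activin A subunit) had 497, 509.8 and 463 CPM in KO cells and 51.7, 47.8 and 46.6 CPM in WT cells, against 8.34, 7.88 and 7.37 CPM in normal liver (log2 difference 5.96 ± 0.061), and KO cells also exceeded WT cells (log2 difference 3.33 ± 0.047 SE, edgeR adjusted p = 1.56e-19). Inhbb (the activin B subunit) had 0, 0 and 0.0566 CPM in KO cells, against 50.9, 51.5 and 49.7 CPM in normal liver and was 2660-fold lower by the ratio of counts, with a 95% exact interval of 477 to 105000. Tgfb1 changed little, with 27.9 ± 1.21 CPM in KO cells and 23.7 ± 2.66 CPM in normal liver (log2 difference 0.24 ± 0.073 SE, edgeR adjusted p = 0.00556). Receptors Tgfbr1 and Tgfbr2 fell by log2 differences of -2.18 ± 0.052 and -2.84 ± 0.071, whereas the coreceptor Tgfbr3 rose (log2 difference 2.48 ± 0.071 SE, edgeR adjusted p = 7.72e-17). Of the signal transducers, Smad1 had 0.115, 0.0574 and 0 CPM in KO cells, against 36.2, 32.6 and 32.2 CPM in normal liver and was 588-fold lower by the ratio of counts, with a 95% exact interval of 201 to 2850, and Smad4, the common partner, fell (log2 difference -2.09 ± 0.040 SE, edgeR adjusted p = 1.70e-19). Ltbp1, which stores latent TGF-beta in the matrix, averaged 10.6 ± 0.439 CPM in KO cells and 244 ± 3.62 CPM in normal liver (log2 difference -4.52 ± 0.051 SE, edgeR adjusted p = 8.48e-23).

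In the IGF axis 10 members were tested, 4 rose and 5 fell, with a median of -0.066. The secreted binding proteins Igfbp3, Igfbp4 and Igfbp7 were near 0 in KO cells. Igfbp3 averaged 0.0960 ± 0.166 CPM in KO cells and 52.9 ± 1.36 CPM in normal liver (log2 difference -9.01 ± 0.21), Igfbp4 averaged 1.09 ± 0.352 CPM in KO cells and 298 ± 11.8 CPM in normal liver (log2 difference -8.09 ± 0.092) and Igfbp7 averaged 0.649 ± 0.394 CPM in KO cells and 317 ± 20.2 CPM in normal liver (log2 difference -8.92 ± 0.11). Irs1, the docking protein of insulin and IGF receptors, rose (log2 difference 2.99 ± 0.078), and Irs2 fell (log2 difference -1.63 ± 0.051). Igf1r averaged 214 ± 3.67 CPM in KO cells, 81.3 ± 2.59 CPM in WT cells, against 123 ± 2.31 CPM in normal liver, above normal liver in KO cells (log2 difference 0.80 ± 0.035 SE, edgeR adjusted p = 5.56e-14) and below it in WT cells.

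In the Wnt list 22 members were tested, 10 rose and 12 fell, with a median of -0.52. Ligands Wnt7b and Wnt10a fell by log2 differences of -5.58 ± 0.081 and -2.52 ± 0.072. Notum, a secreted enzyme that inactivates Wnt ligands, averaged 21.03 ± 0.764 CPM in KO cells, 45.1 ± 2.33 CPM in WT cells, against 0.0184 ± 0.0318 CPM in normal liver and was 1150-fold higher by the ratio of counts, with a 95% exact interval of 206 to 45400. The receptor gene Fzd7 rose (log2 difference 2.31 ± 0.067) and the coreceptor gene Lrp5 fell (log2 difference -2.83 ± 0.073). Ctnnb1 itself fell slightly, by a log2 difference of -0.34 ± 0.031. In the Notch list 11 members were tested, 6 rose and 5 fell, with a median of 0.49. Notch1 averaged 5.86 ± 0.660 CPM in KO cells and 101 ± 5.70 CPM in normal liver (log2 difference -4.11 ± 0.074) and Notch2 averaged 221 ± 4.15 CPM in KO cells and 157 ± 5.73 CPM in normal liver (log2 difference 0.49 ± 0.040). The ligand gene Dll1 averaged 2.77 ± 0.201 CPM in KO cells, 10.04 ± 0.446 CPM in WT cells, against 0 CPM in normal liver and was at least 50.3-fold higher. Hes1, a Notch target, fell (log2 difference -2.07 ± 0.11 SE, edgeR adjusted p = 9.45e-13).

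Mitosis genes of KO cells lay on both sides of normal liver cells and below WT cells. The normal liver cells held much mitosis RNA themselves. List sums were 3508.5 to 3613 CPM in KO cells, 5355 to 5569 CPM in WT cells and 3620.5 to 3803 CPM in normal liver. A value near normal liver is therefore not a low level of mitosis RNA. Of 28 genes tested, 11 rose, 15 fell and 2 were not called, with a median log2 difference of -0.14 from normal liver cells and a median absolute difference of 0.50. For WT cells the median was 0.45, with the same normal liver libraries as reference. Ccnb1 (cyclin B1) had 226, 234 and 241 CPM in KO cells and 400.4, 397 and 384 CPM in WT cells, against 125, 139 and 132 CPM in normal liver (log2 difference 0.82 ± 0.040 SE, edgeR adjusted p = 3.53e-13). Cdk1, its kinase, rose as well (log2 difference 0.92 ± 0.035 SE, edgeR adjusted p = 7.46e-15). Mki67, the proliferation antigen, had 423, 442 and 412 CPM in KO cells and 595, 589 and 593 CPM in WT cells, against 467, 493 and 448 CPM in normal liver (log2 difference -0.14 ± 0.037 SE, edgeR adjusted p = 0.00157). Kif23, a kinesin of cytokinesis, had the largest fall of the list (log2 difference -1.43 ± 0.043 SE, edgeR adjusted p = 1.58e-16), with 51.8, 49.2 and 47.2 CPM in KO cells and 119, 116 and 114 CPM in WT cells, against 133, 138 and 129 CPM in normal liver. Foxm1, a driver of mitotic transcription, fell (log2 difference -0.73 ± 0.044 SE, edgeR adjusted p = 8.77e-12). Placed against WT cells, 10 of the genes were nearer to normal liver in KO cells, 6 further from it and 11 across it, and every placed member was lower in KO than in WT cells.

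DNA replication genes showed the same order of medians, 0.044 in KO cells and 0.51 in WT cells, each against normal liver cells. Of 27 tested, 12 rose and 10 fell. Cdc45, a part of the replicative helicase, rose (log2 difference 1.17 ± 0.060), and Rrm1 rose (log2 difference 0.87 ± 0.033) while Rrm2, the other subunit of ribonucleotide reductase, fell (log2 difference -0.86 ± 0.036). Pole, a replicative polymerase, fell (log2 difference -1.56 ± 0.043 SE, edgeR adjusted p = 5.30e-17). Mcm5 averaged 122 ± 6.81 CPM in KO cells and 125 ± 3.002 CPM in normal liver and was not called.

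Cyclins of G1 phase differed in direction. In that list 18 members were tested, 11 rose and 6 fell, with a median of 0.44. Ccnd1 (cyclin D1) had 255, 263 and 267 CPM in KO cells and 379, 375 and 361 CPM in WT cells, against 1460.1, 1443 and 1428 CPM in normal liver (log2 difference -2.46 ± 0.033 SE, edgeR adjusted p = 6.21e-22). Ccnd2 had 0, 0.0574 and 0.0566 CPM in KO cells, against 72.2, 75.5 and 70.5 CPM in normal liver and was 1910-fold lower by the ratio of counts, with a 95% exact interval of 528 to 15800. Ccne1 (cyclin E1) averaged 18.2 ± 2.03 CPM in KO cells and 2.93 ± 0.389 CPM in normal liver (log2 difference 2.63 ± 0.12), and its kinase gene Cdk2 rose (log2 difference 1.73 ± 0.044). The inhibitors Cdkn1a (p21) and Cdkn1b (p27) fell by log2 differences of -1.37 ± 0.053 and -1.26 ± 0.053, and Cdkn2a rose by 0.50 ± 0.073.

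p53 and its targets were lower in KO cells: of 29 tested, 21 fell and 7 rose, with a median of -1.10. Trp53 itself had 32.6, 31.9 and 33.8 CPM in KO cells and 28, 31.6 and 33.7 CPM in WT cells, against 215, 202 and 216 CPM in normal liver (log2 difference -2.69 ± 0.052 SE, edgeR adjusted p = 1.70e-19). Ccng1, a steady target of p53, had 36.8, 36.9 and 36.2 CPM in KO cells, against 629.7, 679 and 650.1 CPM in normal liver (log2 difference -4.15 ± 0.049 SE, edgeR adjusted p = 1.23e-22). Pmaip1 (NOXA, which promotes cell death) averaged 0.152 ± 0.132 CPM in KO cells and 97.8 ± 5.25 CPM in normal liver (log2 difference -9.26 ± 0.15 SE, edgeR adjusted p = 1.51e-20), and Tigar, which lowers glycolytic flux, had 0.0576, 0.0574 and 0 CPM in KO cells, against 42.6, 42.3 and 40.7 CPM in normal liver and was 1100-fold lower by the ratio of counts, with a 95% exact interval of 303 to 9060. Eda2r, a receptor gene of the list, fell (log2 difference -6.49 ± 0.13 SE, edgeR adjusted p = 2.42e-19). The exceptions included Dram1, a lysosomal protein of autophagy, which rose (log2 difference 5.87 ± 0.24), and Tnfrsf10b, a TRAIL receptor, which rose (log2 difference 1.32 ± 0.051). Mdm2, the ligase that degrades p53, differed little, with 175 ± 2.43 CPM in KO cells and 153 ± 3.52 CPM in normal liver (log2 difference 0.19 ± 0.041 SE, edgeR adjusted p = 2.39e-04).

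**Figure D4:**
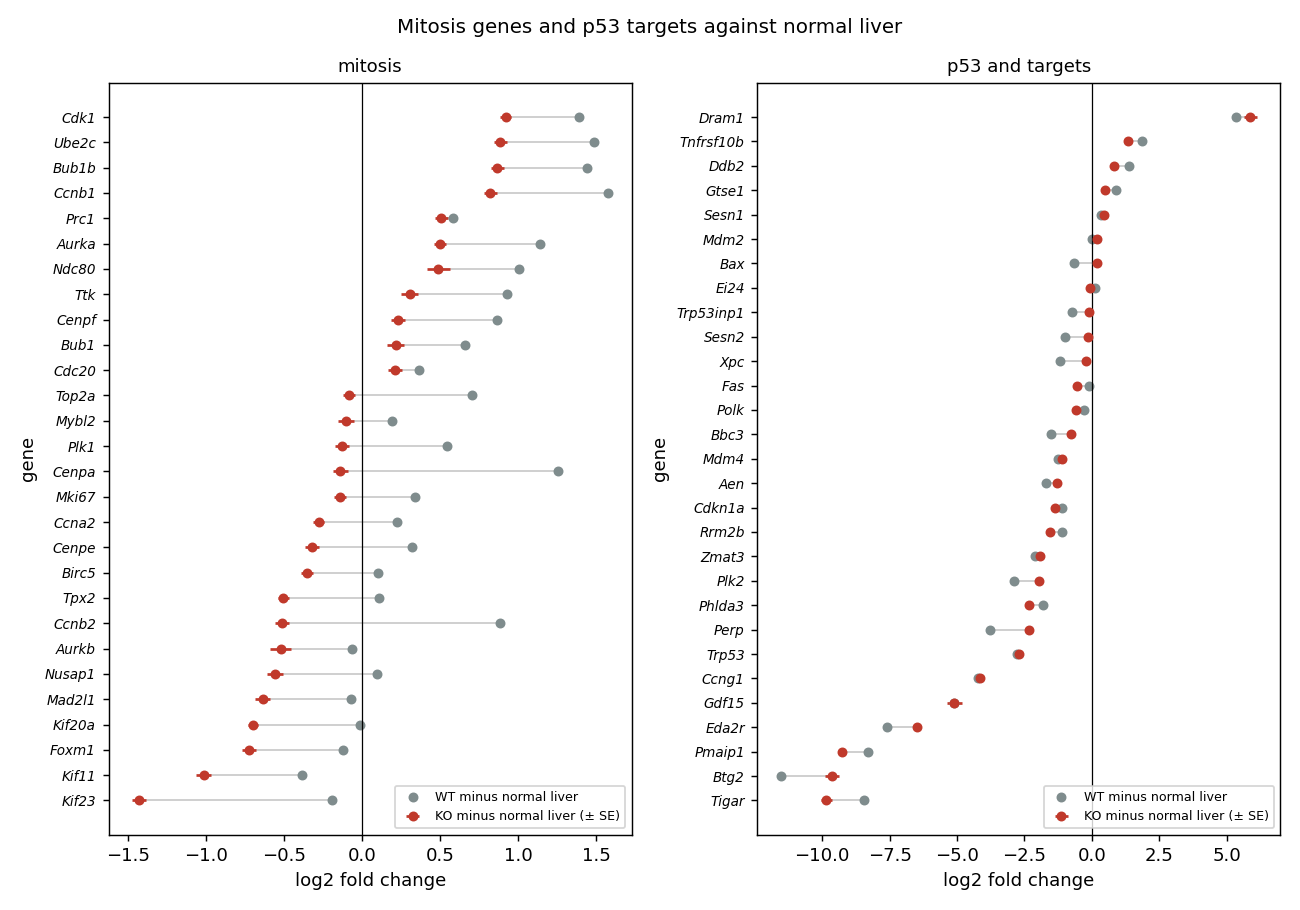
Log2 differences from normal liver of genes of the mitosis list (left) and the p53 list (right), for KO early HCC cells (red, with SE) and WT early HCC cells (grey). Grey lines join the values of a gene; in the mitosis panel the KO point lies left of the WT point for every gene, and in the p53 panel most genes lie below 0 in both. Both differences share the normal liver libraries, and for genes of 3 or fewer counts in a group the plotted value is the fitted one.

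Glucose transport and glycolysis genes differed in both directions. In the list 23 members were tested, 11 rose and 9 fell, with a median of -0.012. Slc2a3 (GLUT3, a high-affinity glucose transporter) had 1236, 1277 and 1245 CPM in KO cells, against 0.442, 0.441 and 0.491 CPM in normal liver (log2 difference 11.40 ± 0.065 SE, edgeR adjusted p = 3.18e-26). Hk2, the hexokinase of tumours and muscle, had 224, 242 and 232 CPM in KO cells, against 1.60, 1.32 and 1.69 CPM in normal liver (log2 difference 7.23 ± 0.079 SE, edgeR adjusted p = 5.08e-23). Slc2a1 (GLUT1) averaged 219.6 ± 3.03 CPM in KO cells, 101 ± 1.78 CPM in WT cells, against 102 ± 3.68 CPM in normal liver (log2 difference 1.11 ± 0.036 SE, edgeR adjusted p = 5.19e-16). Pgam1 and Eno1, enzymes of the lower steps, fell by log2 differences of -1.26 ± 0.032 and -0.76 ± 0.041. Pklr, the pyruvate kinase of liver and red cells, averaged 0.114 ± 0.000999 CPM in KO cells and 58.4 ± 3.55 CPM in normal liver (log2 difference -8.91 ± 0.16 SE, edgeR adjusted p = 3.82e-20), and Pkm fell by -0.65 ± 0.032. The lactate exporters Slc16a1 and Slc16a3 rose (2.13 ± 0.034 and 5.50 ± 0.14 as log2 differences).

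Fat oxidation genes leaned down: 20 members were tested, 6 rose and 13 fell, with a median of -0.64. Cpt1a, which admits fatty acids to mitochondria, had 16.7, 17.3 and 17.05 CPM in KO cells, against 107, 104 and 105 CPM in normal liver (log2 difference -2.63 ± 0.059 SE, edgeR adjusted p = 1.58e-18). Decr1, needed for unsaturated fatty acids, had 0.0576, 0 and 0.0566 CPM in KO cells, against 39.3, 39.1 and 37.3 CPM in normal liver and was 1010-fold lower by the ratio of counts, with a 95% exact interval of 280 to 8360. Acaa2 fell by a log2 difference of -3.68 ± 0.097. In cholesterol and fatty acid synthesis 26 members were tested, 9 rose and 15 fell, with a median of -0.14. Dhcr7, an enzyme of the last steps of cholesterol synthesis, rose (log2 difference 1.73 ± 0.059). Gpam, which starts triglyceride synthesis, averaged 0.0758 ± 0.0864 CPM in KO cells and 143 ± 1.24 CPM in normal liver (log2 difference -10.75 ± 0.14 SE, edgeR adjusted p = 7.34e-22).

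For serine and one-carbon metabolism 12 members were tested, 3 rose and 9 fell, with a median of -0.63. Phgdh, Psat1 and Psph, the 3 steps of serine synthesis, fell by log2 differences of -0.98 ± 0.036, -1.27 ± 0.030 and -1.28 ± 0.035. Gldc, which cleaves glycine, averaged 0.438 ± 0.183 CPM in KO cells and 281 ± 8.23 CPM in normal liver (log2 difference -9.30 ± 0.092 SE, edgeR adjusted p = 1.36e-23). Among genes of NRF2 and glutathione 21 members were tested, 13 rose and 6 fell, with a median of 0.28. Nqo1, the quinone reductase, had 20.6, 20.3 and 20.6 CPM in KO cells and 12.4, 13.9 and 14.1 CPM in WT cells, against 0, 0 and 0.0546 CPM in normal liver and was 1120-fold higher by the ratio of counts, with a 95% exact interval of 200 to 44100. Pgd and G6pdx, of the pentose phosphate pathway, rose by log2 differences of 2.20 ± 0.035 and 1.71 ± 0.053, while Gclc, the rate-limiting step of glutathione synthesis, fell (log2 difference -2.14 ± 0.038) and Cat (catalase) fell (log2 difference -2.44 ± 0.056).

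In the unfolded protein and amino acid response list 21 members were tested, 10 rose and 8 fell, with a median of -0.003. The chaperone genes Hspa5 (BiP) and Hsp90b1 rose by log2 differences of 1.18 ± 0.028 and 1.11 ± 0.041. The amino acid response gene Asns (asparagine synthetase) fell (log2 difference -2.10 ± 0.032 SE, edgeR adjusted p = 5.18e-21), with 167 ± 3.87 CPM in KO cells, 72.4 ± 1.16 CPM in WT cells, against 713 ± 3.63 CPM in normal liver. Respiratory chain genes were balanced in number of calls only, 12 higher and 12 lower of 28, with a median of -0.039. At least 2-fold, 1 was higher and 7 were lower, against 20.3% and 20.1% of all tested genes. Atp5a1, a subunit of ATP synthase, had the largest fall of the list (log2 difference -2.07 ± 0.032 SE, edgeR adjusted p = 5.13e-21). Iron genes leaned down, with 12 of 15 lower and a median of -0.49. Slc40a1 (ferroportin, the iron exporter) had 0, 0 and 0.0566 CPM in KO cells, against 29.2, 31.6 and 30.2 CPM in normal liver and was 1590-fold lower by the ratio of counts, with a 95% exact interval of 285 to 62900. Fth1 (ferritin heavy chain) rose (log2 difference 1.17 ± 0.028), with 4510.1 ± 49.2 CPM in KO cells, 2436 ± 44.5 CPM in WT cells, against 2007 ± 40.7 CPM in normal liver, and Tfr2 rose (log2 difference 4.20 ± 0.35).

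RNA of genes for antigen presentation by MHC class I was higher in KO cells for most of the list. Presentation itself was not measured. Of 18 members tested, 16 rose and 2 fell, with a median of 1.37, against 0.035 over all genes. Of 19 members with a row, 17 averaged at least 1 CPM in KO cells and 14 in normal liver. Members that passed the filter only through the early HCC groups had to rise, so this count and median carry no test. H2-K1, a classical heavy chain, had 186, 189.7 and 192 CPM in KO cells and 239, 245 and 257 CPM in WT cells, against 44.4, 40.02 and 46.96 CPM in normal liver (log2 difference 2.11 ± 0.049 SE, edgeR adjusted p = 3.15e-18). Tap1 and Tap2, the peptide transporter, averaged 7.09 ± 0.893 CPM in KO cells, 11.1 ± 1.04 CPM in WT cells, against 0.0366 ± 0.0317 CPM in normal liver for Tap1 and 27.2 ± 1.35 CPM in KO cells, 52.4 ± 0.765 CPM in WT cells, against 0.238 ± 0.114 CPM in normal liver for Tap2. Tap1 was 194-fold higher by the ratio of counts, with a 95% exact interval of 53.2 to 1600, and Tap2 rose (log2 difference 6.79 ± 0.15 SE, edgeR adjusted p = 1.62e-18). Psmb9, an immunoproteasome subunit, averaged 2.42 ± 0.106 CPM in KO cells and 0 CPM in normal liver and was at least 44-fold higher. The exceptions were B2m, the shared light chain, with 94.6, 85.03 and 88.02 CPM in KO cells, against 258, 254 and 256 CPM in normal liver (log2 difference -1.52 ± 0.039), and Nlrc5, the activator of class I genes, with 0.0572 ± 0.000499 CPM in KO cells and 1.89 ± 0.595 CPM in normal liver (33-fold lower by the ratio of counts, with a 95% exact interval of 11 to 163). KO cells were below WT cells for H2-K1 (log2 difference -0.39 ± 0.042 SE, edgeR adjusted p = 2.04e-07) and Tap2 (log2 difference -0.95 ± 0.057 SE, edgeR adjusted p = 6.24e-11). Heavy chain genes are near-identical copies of each other, and how reads were divided among them is not given in the sources used here.

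Interferon-stimulated genes leaned the same way: 24 members were tested, 15 rose and 7 fell, with a median of 0.77. Of 29 members with a row, 21 averaged at least 1 CPM in KO cells and 15 in normal liver. Members that passed the filter only through the early HCC groups had to rise here too, so this count carries no test. Gbp2, a guanylate-binding protein, averaged 41.1 ± 0.693 CPM in KO cells and 0.879 ± 0.142 CPM in normal liver (log2 difference 5.53 ± 0.10), and Irf1 rose (log2 difference 1.82 ± 0.056). Ifitm3, which blocks viral entry, had 7.83, 5.86 and 7.25 CPM in KO cells and 36.5, 38.7 and 39.4 CPM in WT cells, against 0.0552, 0.110 and 0 CPM in normal liver and was 127-fold higher by the ratio of counts, with a 95% exact interval of 43.1 to 618. Stat2 and Ifngr1 fell by log2 differences of -1.41 ± 0.055 and -1.46 ± 0.045. Among checkpoint ligands 10 members were tested, 6 rose and 2 fell, with a median of 0.45. Cd274 (PD-L1) averaged 4.19 ± 0.649 CPM in KO cells and 2.68 ± 0.220 CPM in normal liver (log2 difference 0.65 ± 0.17 SE, edgeR adjusted p = 0.00139). Cd47, the signal that restrains phagocytes, had 175, 179 and 179.7 CPM in KO cells and 209.5, 204 and 201 CPM in WT cells, against 52.6, 57.2 and 54.3 CPM in normal liver (log2 difference 1.70 ± 0.040 SE, edgeR adjusted p = 3.21e-18). Cd276 (B7-H3) fell (log2 difference -2.40 ± 0.078) and Lgals9 (galectin-9) fell (log2 difference -2.10 ± 0.052).

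Signals to macrophages differed gene by gene, with 6 of 17 higher and 8 lower and a median of 0.46. Ccl2, the monocyte attractant, had 18.1, 18.1 and 16.7 CPM in KO cells and 1.01, 1.51 and 1.46 CPM in WT cells, against 78.6, 81.2 and 78.5 CPM in normal liver (log2 difference -2.17 ± 0.055 SE, edgeR adjusted p = 1.03e-17). Csf1, the growth factor of macrophages, averaged 48.5 ± 0.988 CPM in KO cells, 79.6 ± 0.791 CPM in WT cells, against 142 ± 6.89 CPM in normal liver (log2 difference -1.55 ± 0.043), and Il34, which binds the same receptor, fell (log2 difference -3.36 ± 0.091). Il33, an alarmin of barrier cells, had 0 CPM in all 3 libraries in KO cells, against 11.7, 13.1 and 12.01 CPM in normal liver and was at least 215-fold lower. Cxcl10 averaged 9.76 ± 0.130 CPM in KO cells and 0.0550 ± 0.000331 CPM in normal liver and was 178-fold higher by the ratio of counts, with a 95% exact interval of 60.4 to 864. Lif and Mif rose by log2 differences of 1.43 ± 0.039 and 1.09 ± 0.065. Complement, coagulation and acute phase genes ran to both sides, with 7 higher and 13 lower of 20 and a median of -1.07. Cp (ceruloplasmin, a copper carrier of plasma) had 7.48, 7.41 and 6.17 CPM in KO cells, against 399, 428 and 396 CPM in normal liver (log2 difference -5.86 ± 0.059), and Lbp, which binds bacterial lipopolysaccharide, averaged 0.343 ± 0.00300 CPM in KO cells and 182 ± 3.27 CPM in normal liver (log2 difference -9.02 ± 0.10). The metallothioneins Mt1 and Mt2 rose by log2 differences of 2.85 ± 0.051 and 3.75 ± 0.058. F5 (coagulation factor V) averaged 14.3 ± 0.599 CPM in KO cells, 1.29 ± 0.278 CPM in WT cells, against 0.0548 ± 0.0546 CPM in normal liver and was 259-fold higher by the ratio of counts, with a 95% exact interval of 88.4 to 1260.

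Genes with the largest differences were present in the early HCC libraries and at or near 0 in normal liver, or the reverse. Among the 10 of largest rise, Fam167a had 89.9, 89.05 and 88.5 CPM in KO cells and 28.8, 25.2 and 25.8 CPM in WT cells, against 0 CPM in all 3 libraries in normal liver, and KO cells were at least 1620-fold higher. Bdkrb2, the bradykinin receptor B2, averaged 52.1 ± 0.505 CPM in KO cells, 5.22 ± 0.115 CPM in WT cells, against 0 CPM in normal liver and was at least 948-fold higher. Cox7b2, a respiratory chain subunit of the testis, averaged 34.4 ± 2.16 CPM in KO cells, 49.1 ± 2.93 CPM in WT cells, against 0 CPM in normal liver, and Tmtc2 averaged 29.5 ± 1.98 CPM in KO cells, 25.3 ± 1.84 CPM in WT cells, against 0 CPM in normal liver. Among the 10 of largest fall, Abcg2, a drug efflux transporter, had 0 CPM in all 3 libraries in KO cells and 0.355, 0.335 and 0.392 CPM in WT cells, against 33.5, 32.8 and 33.5 CPM in normal liver and was at least 581-fold lower. Gsdmd (gasdermin D, the pore of pyroptosis) had 0, 0 and 0.0566 CPM in KO cells, against 125, 122 and 122 CPM in normal liver and was 6430-fold lower by the ratio of counts, with a 95% exact interval of 1150 to 254000. Ugcg, which makes glucosylceramide, averaged 0 CPM in KO cells and 49.7 ± 0.610 CPM in normal liver. Plac8 averaged 0.0758 ± 0.0864 CPM in KO cells and 355 ± 8.11 CPM in normal liver (log2 difference -12.06 ± 0.12 SE, edgeR adjusted p = 1.17e-23), and Efemp1, a matrix protein, averaged 0.0380 ± 0.0329 CPM in KO cells and 167 ± 2.65 CPM in normal liver. Trpa1, an ion channel of irritant sensing, averaged 0.0189 ± 0.0327 CPM in KO cells and 102 ± 3.78 CPM in normal liver. Fam167a, Bdkrb2, Cox7b2 and Tmtc2 were above normal liver, and Abcg2 below it, in WT cells too.

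Relative to WT cells, KO cells lay nearer to normal liver for 3356 genes (25.9% of those tested), further from it for 3117 (24.1%) and across it for 1365 (10.6%). A gene was placed only where KO and WT cells differed, which 7838 genes did (60.6%), 1045 of them at least 2-fold (8.08%). Side and distance were read from the estimated differences, and neither difference from normal liver had to be called. The genes across can thus include some whose KO or WT level was close to normal liver. Of the placed genes that differed at least 2-fold between KO and WT cells, 474 were nearer, 351 further and 220 across. Of 5354 genes at least 2-fold from normal liver in WT cells (41.4%), 4458 (83.3%) were also at least 2-fold off on the same side in KO cells, and 227 (4.24%) came within a log2 difference of 0.5 in KO cells. Of 5229 genes at least 2-fold from normal liver in KO cells (40.4%), 158 (3.02%) were within 0.5 in WT cells. The placing reuses the same KO, WT and normal liver libraries in all distances, so these counts are a description.

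Genes nearer to normal liver in KO cells included several on chromosome 4. Lrrc47 (leucine-rich repeat protein, chr4:154011803-154021512, GRCm38) had 29.4, 36.1 and 29.2 CPM in KO cells and 0, 0.0559 and 0.224 CPM in WT cells, against 73.7, 65.8 and 71.3 CPM in normal liver. WT cells were near 0 for this gene, whereas KO and normal liver cells were not. Wrap73 averaged 5.38 ± 0.182 CPM in KO cells, 0 CPM in WT cells, against 9.82 ± 0.783 CPM in normal liver, and Smim1 averaged 2.21 ± 0.233 CPM in KO cells, 0.0570 ± 0.00188 CPM in WT cells, against 69.6 ± 3.79 CPM in normal liver. The end of Lrrc47 overlaps Smim1, so reads there cannot be assigned with certainty where strand was not used. Chromosome 4 as a whole held 50 of the 227 genes that came within 0.5, which is 6.15% of its 813 tested genes, against 1.76% of all tested genes. Chromosome 7 held 36 of them (3.66% of its 984 tested genes). In the other direction, 158 of all 12934 tested genes were far from normal liver in KO cells alone. Of these, 18 were among the 813 tested genes of chromosome 4, and more, 21, among the 719 of chromosome 9. On chromosome 4, Slc25a33, a mitochondrial pyrimidine carrier, had 15.2, 15.2 and 13.6 CPM in KO cells and 0.0592, 0 and 0.168 CPM in WT cells, against 44.7, 45.5 and 44.6 CPM in normal liver. Elsewhere, Akr1c12, an aldo-keto reductase with close paralogs, averaged 12.9 ± 0.908 CPM in KO cells, 0.0746 ± 0.0646 CPM in WT cells, against 81.5 ± 0.303 CPM in normal liver, and Cyp11a1, which starts steroid synthesis, averaged 1.03 ± 0.252 CPM in KO cells, 26.9 ± 1.07 CPM in WT cells, against 0.0366 ± 0.0317 CPM in normal liver.

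Genes further from normal liver in KO cells than in WT cells included Clstn1 (calsyntenin 1), with 57.2, 62.2 and 62.2 CPM in KO cells and 0.829, 1.45 and 1.34 CPM in WT cells, against 0.387, 0.331 and 0.546 CPM in normal liver (log2 difference 7.14 ± 0.13 SE, edgeR adjusted p = 9.34e-20). Sprr1b, a protein of the cornified envelope, averaged 41.6 ± 2.56 CPM in KO cells, 0.819 ± 0.274 CPM in WT cells, against 0.165 ± 0.111 CPM in normal liver (log2 difference 7.92 ± 0.18 SE, edgeR adjusted p = 2.84e-18). Vwa5a averaged 0.592 ± 0.169 CPM in KO cells, 15.8 ± 0.872 CPM in WT cells, against 31.6 ± 1.01 CPM in normal liver (log2 difference -5.72 ± 0.13), and the scramblase gene Plscr2 averaged 0.572 ± 0.0937 CPM in KO cells, 10.1 ± 0.563 CPM in WT cells, against 181 ± 2.34 CPM in normal liver (log2 difference -8.29 ± 0.082). Tmprss11b, a membrane serine protease, averaged 20.98 ± 0.925 CPM in KO cells, 0.815 ± 0.124 CPM in WT cells, against 0 CPM in normal liver and was at least 382-fold higher. Clstn1 and Sprr1b were also above normal liver in WT cells, by less (log2 difference 1.51 ± 0.31 SE, edgeR adjusted p = 1.53e-04 for Clstn1 and log2 difference 2.26 ± 0.45 SE, edgeR adjusted p = 1.34e-04 for Sprr1b, WT minus normal liver), and Plscr2 was below normal liver in both genotypes.

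Genes that crossed normal liver were led by Ppargc1a (PGC-1 alpha, the coactivator of mitochondrial genes and gluconeogenesis). It had 0.345, 0.459 and 0.283 CPM in KO cells and 70.7, 72.7 and 74.6 CPM in WT cells, against 5.30, 4.47 and 4.91 CPM in normal liver. KO cells lay below normal liver (log2 difference -3.73 ± 0.20 SE, edgeR adjusted p = 1.62e-12) and WT cells above it (log2 difference 3.89 ± 0.070 SE, edgeR adjusted p = 6.17e-20). Its relative Ppargc1b, in contrast, was above normal liver in both genotypes, with 6.85 ± 0.854 CPM in KO cells, 8.59 ± 0.356 CPM in WT cells, against 0.184 ± 0.139 CPM in normal liver. The list of PGC-1 coactivators and mitochondrial factors had no common direction: of 10 members, Ppargc1a and Ppargc1b included, 5 rose and 5 fell, with a median of 0.003. Tfam averaged 111 ± 5.12 CPM in KO cells and 66.3 ± 2.27 CPM in normal liver and Esrra averaged 30.8 ± 1.09 CPM in KO cells and 71.7 ± 5.74 CPM in normal liver. Car6, a secreted carbonic anhydrase, averaged 64.3 ± 1.30 CPM in KO cells, 2.01 ± 0.0589 CPM in WT cells, against 3.17 ± 0.514 CPM in normal liver (log2 difference 4.34 ± 0.082 SE, edgeR adjusted p = 1.24e-19). S100a4, a calcium-binding protein of motile cells, averaged 5.26 ± 0.189 CPM in KO cells, 28.02 ± 2.04 CPM in WT cells, against 6.57 ± 1.17 CPM in normal liver, so KO cells were close to normal liver (log2 difference -0.32 ± 0.13 SE, edgeR adjusted p = 0.0281). That call was lost without KO replicate 2 (edgeR adjusted p = 0.0591), KO replicate 3 (0.074), normal liver replicate 2 (0.0612) or normal liver replicate 3 (0.194). C9orf72 averaged 106 ± 3.88 CPM in KO cells, 20.4 ± 0.0431 CPM in WT cells, against 57.2 ± 2.41 CPM in normal liver (log2 difference 0.89 ± 0.043 SE, edgeR adjusted p = 2.12e-13).

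**Figure D5:**
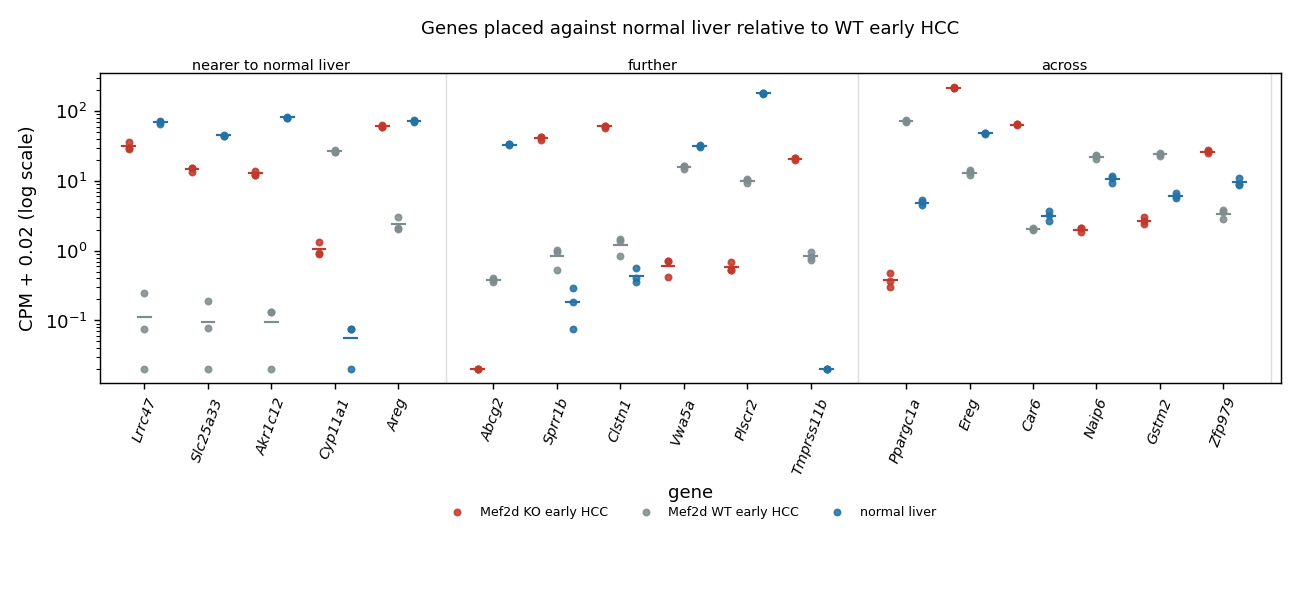
Level in each library of genes placed nearer to, further from and across normal liver in KO relative to WT early HCC cells, as CPM + 0.02 on a log axis. Points are single libraries and short bars are means of 3 libraries. In the left panel KO points lie between WT and normal liver points, in the middle panel WT points lie between the others, and in the right panel normal liver points lie between KO and WT points.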

How the data were processed

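Polyadenylated RNA was extracted with TRIzol and sequenced from stranded libraries, per the labels. The authors deposited 2 tables of expected counts (KO with WT, and WT with normal liver); per the submitters' processing notes, FastQC, HISAT, RSEM and build mm10 were used, with versions, annotation and strand setting not given in the sources used here. The tables were joined by gene identifier over 17140 genes, and the WT values were identical in both (0 differed). Symbols turned into dates were restored for 25 genes, and 99.691% of genes matched RefSeq GRCm38.p6, the source of coordinates and promoters.

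Expected counts were rounded to whole numbers. edgeR 4.0.16 in R 4.3.3 gave TMM scaling over 9 libraries, a filter on low counts (filterByExpr on the 3 groups), quasi-likelihood F tests and Benjamini-Hochberg adjustment over the 12934 genes that passed. Placing used the contrasts KO minus normal, WT minus normal and KO minus WT. DESeq2 1.42.0 was among the alternatives. The test was tried on simulated data for KO minus normal, with 12933 genes. Of 99 genes changed by a log2 of 1, 96% were recovered, and of 99 changed by a log2 of 2, 100%. Among the unchanged genes, 8 were called. The simulation changed few genes, evenly in both directions, with the same spread for every gene. In the data 86.5% of genes were called, a setting that the simulation did not cover. No replicate pair differed by less than sampling noise. Intervals and floors cover counting error only.

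The members and gene lists were chosen with earlier results of these data known. Genes named by rule were the MEF2 and class IIa deacetylase genes, the cell type markers, the 10 higher and 10 lower genes of largest difference with at least 20 CPM in the higher group, the 8 genes of largest gain, loss or crossing relative to WT cells, and up to 4 members per list and direction with at least 10 CPM; other named genes were chosen after their values were seen. Near-identical copies (MHC class I heavy chains, Akr1c genes, metallothioneins, Naip and zinc finger genes) and overlapping genes are uncertain. The table of KC1 and KC2 was not used here. Some list members are not reported here.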

Additional observations from a re-analysis of the deposited data

Results flagged for a closer look

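Of the genes named here, 5 were at least 2-fold from normal liver in both early HCC genotypes but on opposite sides, and each was picked out because the difference between KO and WT cells was itself called. Ppargc1a averaged 0.363 ± 0.0893 CPM in KO cells, 72.7 ± 1.97 CPM in WT cells, against 4.89 ± 0.418 CPM in normal liver (log2 difference -7.62 ± 0.11 SE, edgeR adjusted p = 2.56e-19, KO minus WT). Ereg averaged 217 ± 4.07 CPM in KO cells, 13.2 ± 1.14 CPM in WT cells, against 48.4 ± 0.818 CPM in normal liver (log2 difference 4.04 ± 0.051 SE, edgeR adjusted p = 3.84e-20, KO minus WT). Naip6, a sensor of bacterial flagellin, averaged 1.98 ± 0.149 CPM in KO cells, 22.2 ± 1.39 CPM in WT cells, against 10.8 ± 1.22 CPM in normal liver (log2 difference -3.48 ± 0.12 SE, edgeR adjusted p = 2.26e-14, KO minus WT). Gstm2, a glutathione transferase, averaged 2.69 ± 0.282 CPM in KO cells, 24.1 ± 0.947 CPM in WT cells, against 6.17 ± 0.499 CPM in normal liver (log2 difference -3.16 ± 0.10 SE, edgeR adjusted p = 9.91e-15, KO minus WT). Zfp979, a zinc finger gene, averaged 26.3 ± 1.33 CPM in KO cells, 3.38 ± 0.528 CPM in WT cells, against 9.59 ± 1.16 CPM in normal liver (log2 difference 2.96 ± 0.11 SE, edgeR adjusted p = 7.87e-14, KO minus WT). Over all tested genes, 12 lay on opposite sides in this way. Naip6, Gstm2 and Zfp979 have close paralogs, and the part of read division among copies in their values was not tested. Libraries came in groups of 3, too few to single out a library by its distance from the others.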

How the results depend on the processing

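Besides Mef2d, 244 named genes were tested, and 241 kept their direction and their side of the threshold in every alternative against a difference of 0 that gave a value for them; the exceptions were Mef2a, S100a4 and Onecut1, which DESeq2 did not call (adjusted p = 0.0751). Mef2a was also called with no low-count filter (edgeR adjusted p = 0.0386) and with KO and normal liver libraries alone (0.0164). With at least 1 CPM required in each group, which drops genes near 0 in a group by construction, the genes at least 2-fold apart numbered 1316 higher and 1582 lower, against 2623 and 2606. Tested against a log2 difference of 1 in place of 0, 2294 genes were higher and 2315 lower, against 5745 and 5449. Of the 235 named genes called against 0, 192 passed this stricter test and 43 did not; Mef2d, at 0.215, did not either (edgeR adjusted p = 1). Leaving out each library in turn gave 5659 to 5864 higher and 5333 to 5527 lower, at least 2-fold 2647 to 2718 higher and 2603 to 2675 lower, and 3117 to 3410 nearer, 2861 to 3158 further and 1322 to 1376 across. The Mef2d difference of 0.215 stayed between 0.156 and 0.285 and was called each time against 0. Samples of the same replicate number did not deviate together (correlations -0.166 to 0.183), so the numbers were not taken to pair samples; with the replicate number as a block, 5726 genes were higher and 5447 lower, Mef2d differed by 0.216 and Mef2a passed (edgeR adjusted p = 0.0484). DESeq2 gave 5686 higher and 5480 lower. Genes at a few counts in a group are limited by depth, and their folds by the counting intervals given.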
